A study of Rattus norvegicus with 58 samples.

Results

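Synovial tissue of arthritic rats after 5 days of saline injections was compared with synovial tissue of naive rats, to ask which expression changes were present late in arthritis without drug. The libraries were chosen by the sample titles: 8 saline day 5 libraries and 4 naive libraries, together 12 of the 58 in the series. The saline rats were female DA/OlaHsd rats that had received 250 μl of pristane at an age of 6 to 8 weeks. Their day 0 followed once both hind limbs had reached a severity score of 3 or more, and they then received saline under the skin for 5 days. The other group is labelled naive in its disease state, and its titles name neither pristane nor an injection. Arthritis and the saline injections therefore cannot be told apart here, and the strain and age of naive rats are not given separately. Neither group's labels name RTD-1, the peptide tested in the series, which was given to healthy and arthritic rats at 5 mg/kg under the skin. Values of 2 healthy RTD-1 groups (days 3 and 5, 5 libraries each) and of arthritic groups without RTD-1 are set beside those of the main groups: untreated (4 libraries), saline day 1 (4) and saline day 3 (8). No label says whether a library held tissue of 1 rat or of several.

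The synovium is the thin membrane that lines a joint. In healthy joints it consists of a sparse lining of fibroblasts and macrophages over loose connective tissue, fat and vessels, and it makes the fluid that lubricates the cartilage. Pristane is a hydrocarbon oil that provokes a chronic polyarthritis in susceptible rat strains, in which the lining thickens, leukocytes enter the tissue and proteases of fibroblasts and macrophages attack cartilage and bone. In bulk tissue fewer cells of a type and less RNA per cell cannot be told apart. The deposited table gives Ensembl rat identifiers without symbols, and the reference used here pairs none of them with a name. The labelled tissue was therefore not checked against marker genes. Genes are described by their number, level and change, and 4 of them by identifier.

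Naive libraries held between 1573925 and 2396818 reads in genes. Of the saline libraries, replicates 2 to 8 held between 1017275 and 2398902 and replicate 1 held 6415288. Replicate 1 also stood apart in its profile. Its Pearson correlation over 13062 genes with the other saline libraries was 0.86 to 0.88, where those libraries correlated with each other at 0.91 to 0.95 and naive libraries among themselves at 0.92 to 0.94. A single gene took 7.59% of the reads of replicate 1, at most 0.389% in the other saline libraries and at most 0.0160% in the naive ones. Replicate 1 lay at least 2-fold above every other saline library in 155 genes and at least 2-fold below all of them in 441. For replicates 2 to 8 these numbers were at most 59 and 396. Counts of called genes, sizes of change, read shares, the 4 named genes and the library measures that passed are therefore given with and without replicate 1.

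Expression at saline day 5 was still widely different from naive tissue. Of 13062 genes tested, 3546 were called, or 27.1% (limma on log2(normalized reads + 1), Benjamini-Hochberg adjusted p under 0.05). Normalized reads are reads divided by the factor of their library in the deposited values and multiplied by the median factor of all 58 libraries. Reads in genes made up 24.5% (replicate 7) to 49.8% (replicate 4) of that factor in saline libraries. Depth in genes was therefore not made equal. Higher levels at saline day 5 were found for 2151 genes (16.5%) and lower levels for 1395 (10.7%). A change of at least 2-fold was reached by 2093 of the called genes (16.0%), 1144 upward (8.76%) and 949 downward (7.27%). Without replicate 1 there were 3314 called genes (25.4%), 1993 higher (15.3%) and 1321 lower (10.1%), and 2049 of them changed at least 2-fold, 1121 upward and 928 downward. Of the 3314 genes, 3236 were also among the 3546, all in the same direction, and 310 of the 3546 were not called.

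The median gene differed by 0.07 log2 with the deposited scaling and by -0.01 with factors from a trimmed mean of M values (TMM). The balance of directions moved with that choice. With TMM factors 2232 genes were higher and 2019 lower, and limma voom on recovered reads with TMM factors gave 1891 higher and 2193 lower. Counts of genes with at least 2-fold changes were 1053 higher and 1102 lower with TMM factors. With TMM factors and without replicate 1 they were 1053 higher and 1044 lower. With the deposited scaling and no filter on low values they were 1183 higher and 1659 lower. Which direction held more genes is therefore not a result of these data.

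**Figure D1:**
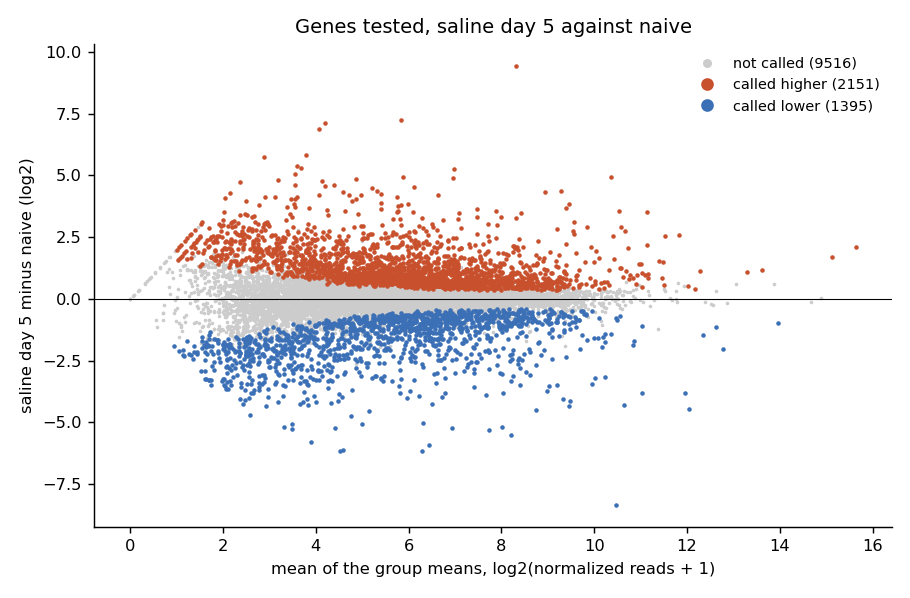
Difference between saline day 5 and naive (log2, vertical axis) against the mean level of both groups (log2(normalized reads + 1), horizontal axis), 1 point per gene tested. The 2151 genes called higher and 1395 called lower lie at all levels, and the changes reach 9.43 log2 upward and -8.34 log2 downward.

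Large changes were few in both directions. Among called genes, 390 were at least 4-fold higher and 431 at least 4-fold lower, 103 and 152 at least 8-fold, and 40 and 38 at least 16-fold. Without replicate 1 these numbers were 376 and 433, 101 and 151, and 40 and 45. The 390 genes had a median log2 level of 2.63 in naive tissue and 5.57 at saline day 5. The 431 genes had a median of 5.53 in naive tissue and 2.47 at saline day 5. Both sets were chosen by the same 4-fold cut, so their similar spans in opposite directions are description and carry no test. All 8 saline libraries lay above all 4 naive libraries in 848 of the 2151 higher genes and below them in 748 of the 1395 lower genes. Over all genes tested, groups did not overlap in 12.6%, with saline above in 6.61% and below in 6.03%. Without replicate 1, groups did not overlap in 878 of the 1993 higher and 756 of the 1321 lower genes, against 13.2% of all genes tested (7.01% above and 6.23% below). Complete absence in one group was rare among the 16879 identifiers. In naive libraries 342 genes had 0 reads throughout, which allows up to 0.378 reads per megaread, and 8 of them had a read in every saline library. In saline libraries 330 genes had 0 reads throughout, which allows up to 0.162 reads per megaread, and 27 of them had a read in every naive library. These limits cover counting error only. The 8 genes needed a read in each of 8 libraries and the 27 in each of 4, so the counts are not alike. With at least 3 reads in every such library they were 4 and 6, and with at least 10 reads 1 and 0.

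Called genes were found at low and high levels of expression. Genes were split into 4 bins of equal size by the mean of the naive and saline day 5 levels, both groups weighted equally. From the lowest to the highest bin 464 (14.2%), 483 (14.8%), 568 (17.4%) and 636 genes (19.5%) were called higher, with the deposited scaling. Called lower were 395 (12.1%), 283 (8.67%), 322 (9.86%) and 395 genes (12.1%). The lowest and the highest bin thus held the same number of lower genes. Calls among low genes were mostly large: 390 of the 395 lower genes in the lowest bin changed at least 2-fold, against 173 of 395 in the highest. Standard errors were larger for genes with few reads, so a call there needed a larger change. This contrast thus follows at least in part from the test. A split by the mean over all 58 libraries, most of them arthritic, moves falling genes to low bins and rising genes to high ones. It gave 322 higher and 497 lower genes in its lowest bin, and 755 and 303 in its highest.

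The 4 genes named here were chosen for large changes, no overlap between groups and a call that held without saline replicate 1. These traits are therefore description and carry no test. The largest rise was that of ENSRNOG00000002548. It stood at 8.89, 6.72, 7.98 and 30.2 normalized reads in naive replicates 1 to 4, which were 10, 7, 8 and 29 reads. In saline day 5 libraries it ranged from 5738 to 14328 with a median of 7581, and replicate 1 held 6640. No saline library came near a naive one. The mean was 13.4 ± 11.2 in naive (SD, n = 4) and 8880 ± 3394 in saline tissue (SD, n = 8), which gave a log2 fold change of 9.43 with a standard error of 0.552 (adjusted p = 1.57e-18, limma), or 9.48 when replicate 1 was left out. The gene was also high in the 3 arthritic groups without RTD-1 tabulated beside it, with lowest values of 4195 in untreated arthritis, 8068 after 1 day and 3063 after 3 days of saline. Healthy rats given RTD-1 held between 5.17 and 27.0 on day 3 and between 1.65 and 70.0 on day 5.

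ENSRNOG00000008478 showed the second largest rise. Naive replicates 1 to 4 held 2.67, 2.88, 0 and 31.2 normalized reads. Saline day 5 libraries ranged from 158.9 in replicate 5 to 1843 in replicate 8, with a median of 622.3 and 641.5 in replicate 1, and did not overlap with naive. The means were 9.20 ± 14.8 (SD, n = 4) and 876.3 ± 563 (SD, n = 8), which gave a log2 fold change of 7.25 with a standard error of 1.02 (adjusted p = 2.05e-07, limma), or 7.27 when replicate 1 was left out. In limma voom on recovered reads the change was 7.79 log2 but its adjusted p was 0.0915, so the call did not hold in that test. This gene was less uniform among arthritic libraries than the first: its SD within saline day 5 was 1.10 log2, against 0.52 for ENSRNOG00000002548. Day 3 saline libraries went down to 58.5, the lowest of that group. Healthy RTD-1 libraries of day 3 ranged from 0.432 to 217.5, so that 1 of them lay within the range of saline day 5, and another, at 57.0, lay above all naive libraries.

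The largest fall was that of ENSRNOG00000013552, one of the abundant transcripts of naive synovium. Naive replicates 1 to 4 held 24408, 28175, 33130 and 18641 normalized reads. Saline day 5 libraries held between 22.9 and 301.5, with a median of 80.8. The lowest was replicate 1, and the highest, replicate 5 at 301.5 and replicate 2 at 268.2, were still far below all naive libraries. The means were 26088 ± 6117 (SD, n = 4) and 118.0 ± 110 (SD, n = 8), which gave a log2 fold change of -8.34 with a standard error of 1.25 (adjusted p = 7.64e-07, limma), or -8.09 when replicate 1 was left out. Untreated arthritic libraries held between 15.8 and 45.1, and saline day 3 libraries between 1.28 and 1417. Healthy RTD-1 libraries held between 26232 and 51967 on day 3 and between 13149 and 33861 on day 5.

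ENSRNOG00000008422 fell to the floor of detection. Naive replicates 1 to 4 held 144.9, 285.3, 407.0 and 79.2 normalized reads. In saline day 5 libraries the values ran from 0 to 7.51 with a median of 1.33, and replicate 1 held 4.88. Only 26 reads were counted over all 8 saline libraries, 13 of them in replicate 1 with its greater depth, against 944 over 4 naive libraries. The means were 229.1 ± 147 (SD, n = 4) and 2.52 ± 2.67 (SD, n = 8), which gave a log2 fold change of -6.15 with a standard error of 0.734 (adjusted p = 1.86e-09, limma), or -6.31 when replicate 1 was left out. On the log2(normalized reads + 1) scale this understates the change, and the size depends on the pseudocount: it was -4.29 with a pseudocount of 8. The gene held at most 3.84 in untreated arthritis and at least 63.3 in every healthy RTD-1 library.

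**Figure D2:**
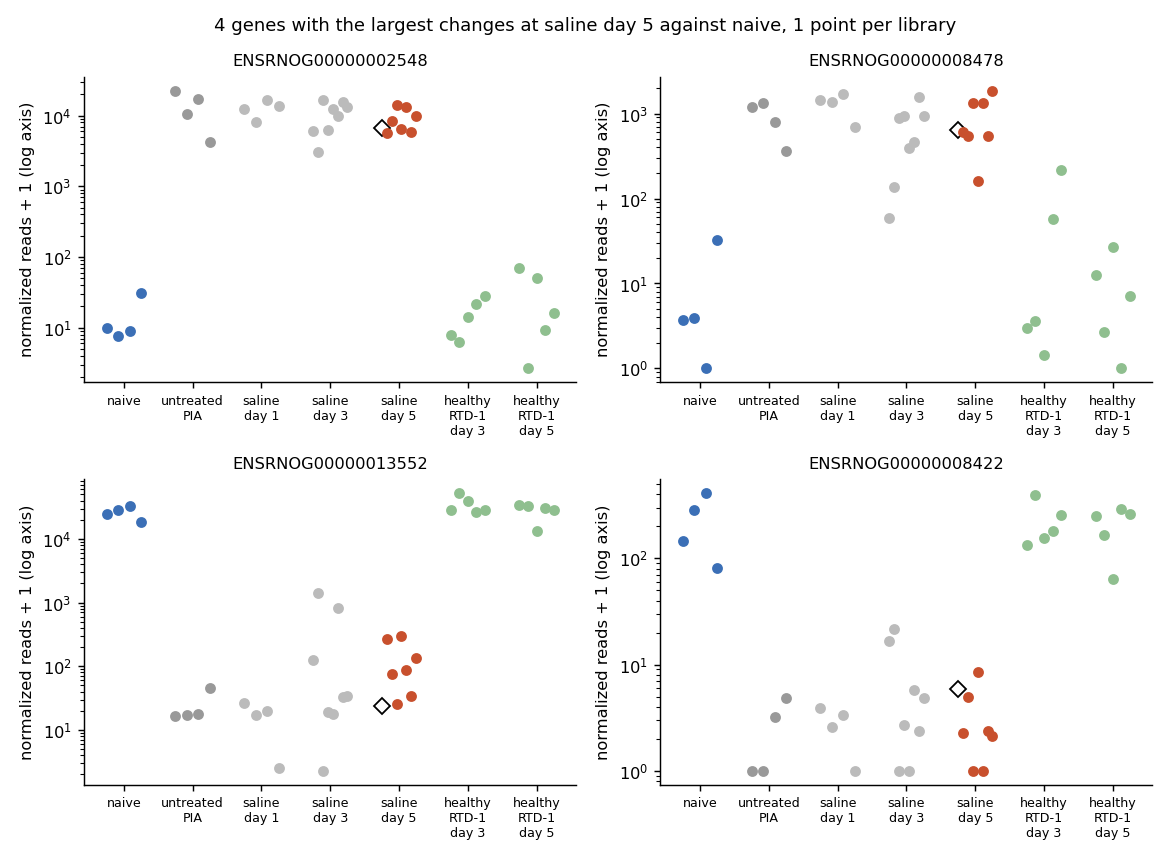
Normalized reads + 1 (log axis) of 4 genes in each library of 7 groups, 1 point per library, with saline day 5 replicate 1 as an open diamond. Naive (blue) and saline day 5 (red) do not overlap in any panel, which the choice of genes required. The grey arthritic groups lie beyond all naive values. Healthy RTD-1 groups (green) overlap with the naive range, though in each panel some of their libraries lie outside it. For ENSRNOG00000008478 1 library of day 3, at 217.5, lies within the saline day 5 range.

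The called genes held a different share of the reads in genes in the groups. The 949 genes called at least 2-fold lower held 16.4%, 17.4%, 16.1% and 13.9% of all reads in genes in naive replicates 1 to 4. In saline day 5 libraries they held between 2.32% and 4.10%, with a median of 2.74%. The 1144 genes called at least 2-fold higher held 6.62%, 6.78%, 6.20% and 8.98% in naive libraries and between 19.4% and 26.8% in saline libraries, with a median of 22.9%. These genes were chosen by their difference, so the gap between the groups is a description and carries no test. Without replicate 1, the 928 falling genes held between 14.9% and 18.5% in naive and between 2.96% and 4.76% in saline libraries. The 1121 rising genes then held between 6.04% and 8.79%, and between 19.2% and 26.4%. Naive replicate 4 had the highest share of the rising and the lowest share of the falling genes of its group. It was also the naive library with the most reads of ENSRNOG00000002548 and ENSRNOG00000008478, 29 and 30.

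**Figure D3:**
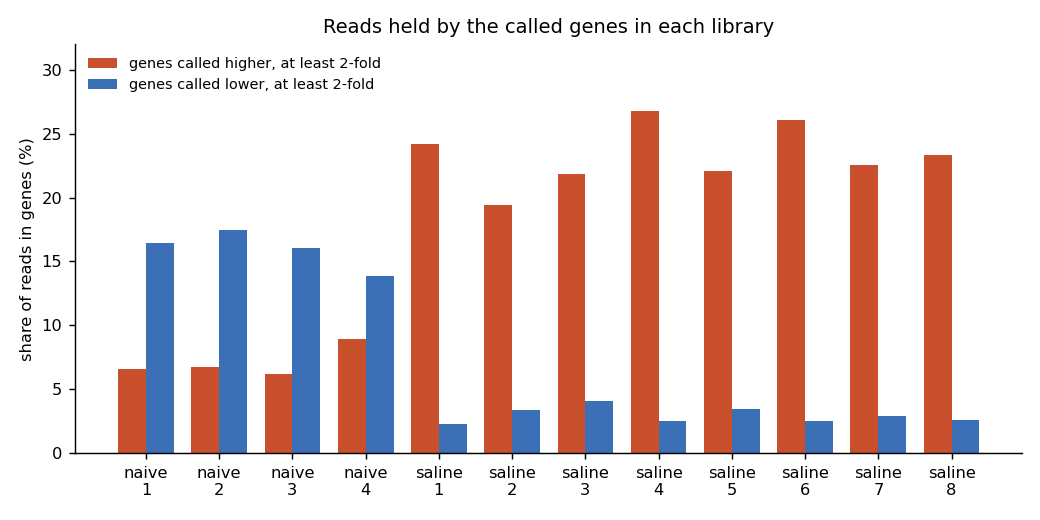
Share of reads in genes (%) held by the 1144 genes called at least 2-fold higher (red) and the 949 called at least 2-fold lower (blue) in each naive and saline day 5 library. The falling genes held at least 13.9% in naive and at most 4.10% in saline libraries, and the rising genes at most 8.98% and at least 19.4%.

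The other groups' levels did not enter the difference that chose these genes, but their libraries took part in the filter and in the estimate of spread, and their values are given relative to the same naive libraries. A fit of the 12 libraries alone called 2703 of the 3546 genes. Healthy RTD-1 libraries were deeper, with 4437281 to 7716834 reads in genes, and the part of depth in their values was not tested. Healthy rats given RTD-1 devoted between 14.8% and 17.3% of reads to the 949 falling genes on day 3 and between 10.9% and 16.6% on day 5. To the 1144 rising genes they devoted between 6.14% and 8.50% on day 3 and between 6.80% and 9.59% on day 5. Both ranges overlapped with those of naive tissue. Untreated arthritic libraries devoted between 2.21% and 3.46% to the falling and between 18.5% and 29.4% to the rising genes. The median difference from naive of the 1144 rising genes was 2.10 log2 in untreated arthritis, 2.07 after 1 day, 1.74 after 3 days and 1.64 after 5 days of saline. The median of all genes tested was 0.28, 0.13, 0.13 and 0.07 log2 in these groups. For the 949 falling genes the medians were -2.00, -2.33, -1.78 and -1.89 log2. In healthy RTD-1 rats of days 3 and 5 the medians were 0.40 and 0.48 log2 for the rising genes, 0.21 and 0.21 for the falling genes and 0.30 and 0.34 for all genes tested. All of these share the naive libraries, and the differences between arthritic groups were not tested here.

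The 8 saline day 5 libraries differed in how far they lay from naive tissue. Each library was placed on the line from the naive mean (0%) to the saline day 5 mean (100%) over 13062 genes, with the library itself left out of the means. Saline libraries lay between 75.2% and 114%, with replicates 3 (75.2%), 5 (79.4%) and 7 (83.8%) nearest to naive, and replicates 6 (110%) and 4 (114%) farthest. Replicate 1 lay at 97.7%. Naive libraries lay between 7.23% and 18.1%, the highest being replicate 4. The same naive mean sets the start of the line and each library's distance from it. Noise in that mean lifts positions above 0%, and its part in the values of libraries without arthritis was not tested. On the same line untreated arthritic libraries lay between 102% and 124%, saline day 1 between 115% and 126% and saline day 3 between 66.8% and 118%. Healthy RTD-1 libraries lay between 7.81% and 15.7%. The saline day 5 libraries thus all lay past every library without arthritis, and 6 of the 8 lay below the lowest untreated arthritic library at 102%.

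**Figure D4:**
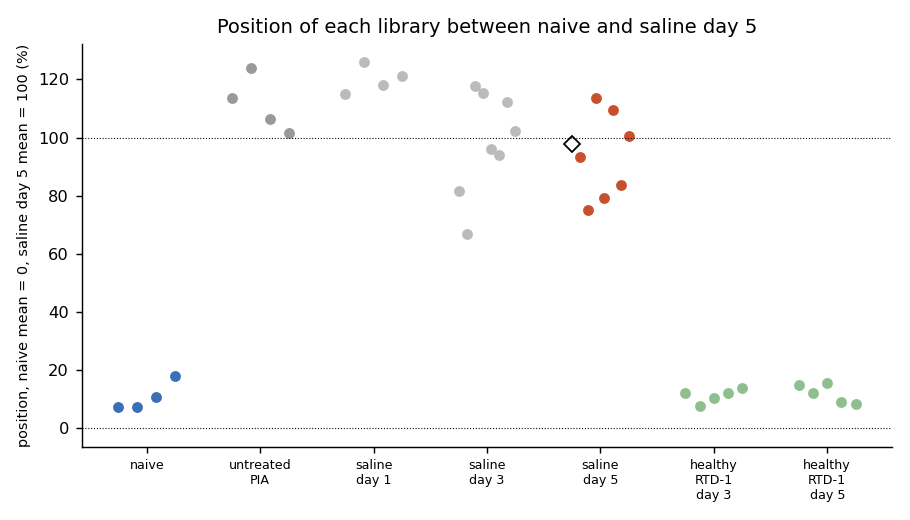
Position of each library on the line from the naive mean (0%) to the saline day 5 mean (100%) over 13062 genes, the library placed being left out of the means; the open diamond is saline day 5 replicate 1. Saline day 5 libraries spread from 75.2% to 114%, and naive and healthy RTD-1 libraries stay at or below 18.1%.

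Nearness to naive tissue was not the same for rising and falling genes. In replicate 7, 278 of the 1144 rising genes (24.3%) lay at or below the highest naive library, against 23 (2.01%) in replicate 4 and at most 131 (11.5%) in the others. For falling genes replicate 7 was among the farthest from naive: 50 of 949 (5.27%) lay at or above the lowest naive library, and only replicates 6 and 8 had fewer. Replicate 3 had the most such genes, 140 (14.8%), and replicate 6 the fewest of all, 35 (3.69%). The median rise of the 1144 genes was 1.14 log2 in replicate 7 and 2.22 in replicate 4, and the median fall of the 949 genes was -1.35 log2 in replicate 3 and -2.22 in replicate 6. Replicate 7 had the fewest reads in genes of the 12 libraries, 1017275, and the smallest share of its factor in genes, 24.5%, and replicate 4 the largest such share, 49.8%. The factor is the number, in megareads, by which the deposited values of a library are divided. The part of this share in the differences was not tested.

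Replicates 1 to 4 and 5 to 8 gave different balances against the same 4 naive libraries. With replicates 1 to 4 alone 3597 genes were called, 2733 higher and 864 lower, and the median gene was 0.22 log2 above naive. With replicates 5 to 8 alone 2768 were called, 1227 higher and 1541 lower, and the median gene was -0.08 log2 from naive. The share of called genes that were higher was thus 76.0% in the first set and 44.3% in the second. With TMM factors, which centre the libraries, the sets gave 1866 higher and 1563 lower, and 1944 higher and 1658 lower, or 54.4% and 54.0% higher. Replicates 2 to 4 without the deeper library gave 2478 higher and 684 lower with the deposited scaling. The labels do not say what separates the sets, and the sets were not compared with each other by a test here.

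**Figure D5:**
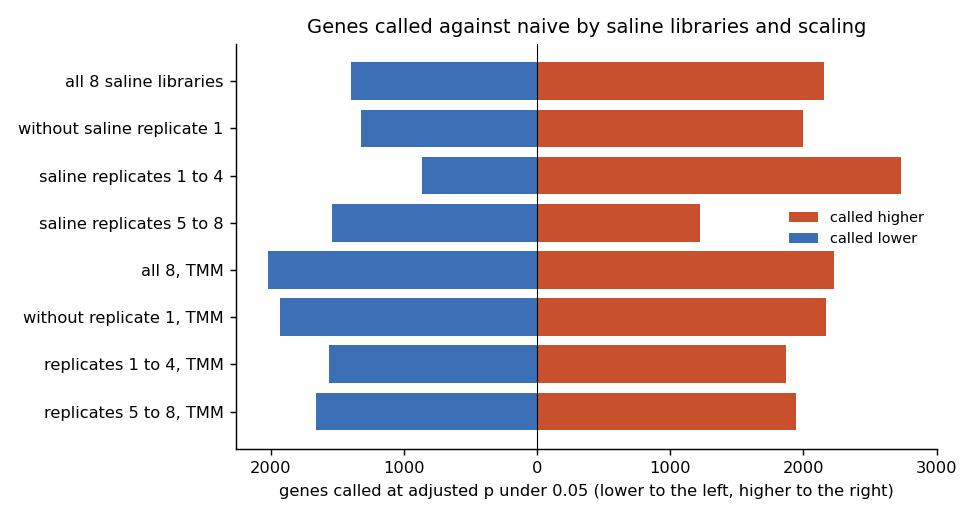
Numbers of genes called higher (red, to the right) and lower (blue, to the left) than naive at adjusted p under 0.05, for all 8 saline libraries and for subsets, with the deposited scaling (upper 4 bars) and TMM factors (lower 4 bars). With the deposited scaling replicates 1 to 4 gave 2733 higher and 864 lower genes and replicates 5 to 8 gave 1227 and 1541; with TMM factors the subsets gave similar balances.

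On average, saline day 5 libraries showed fewer genes at matched depth, and their 10 most abundant genes took a larger share of reads. At a matched depth of 1017275 reads, naive libraries showed 14533, 14704, 13891 and 15162 genes with at least 1 read. Saline libraries showed between 13179 and 14419. The means were 14572.5 ± 526 (SD, n = 4) and 13768 ± 357 (SD, n = 8), a difference of -805 genes (two-sided exact permutation p = 0.00808, 0.0162 after adjustment over 4 such measures). Without replicate 1 the difference was -800 genes (exact permutation, adjusted p = 0.0242). The groups overlapped, since saline replicate 7 at 14419 exceeded naive replicate 3. The 10 most abundant genes of a library took 11.3% ± 0.865 of its reads in naive tissue (SD, n = 4) and 16.1% ± 3.21 at saline day 5 (SD, n = 8), which also passed the test (exact permutation p = 0.00808, adjusted 0.0162). Without replicate 1, where they took 22.4%, the saline mean was 15.2% ± 2.09 (SD, n = 7; exact permutation p = 0.0121, adjusted 0.0242).

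The remaining measures did not pass. The number of genes that together held 50% of reads was 755 ± 23.7 in naive (SD, n = 4) and 626 ± 113 in saline libraries (SD, n = 8; exact permutation p = 0.0444, adjusted 0.0593). Reads in genes made up 33.4% ± 5.70 of the factor in naive (SD, n = 4) and 37.4% ± 7.47 in saline libraries (SD, n = 8; exact permutation p = 0.372, adjusted 0.372). In each group the library with the lowest such share, naive replicate 4 at 28.5% and saline replicate 7 at 24.5%, was the one with the most genes detected at matched depth. The part of this share in the difference between the groups was not tested. These measures were chosen after the data were seen.

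Within each group the spread of a gene between libraries was of similar size. Among 8426 genes with a mean log2 level of at least 5, the median SD was 0.35 log2 in naive and 0.40 in saline day 5 libraries, and again 0.40 without replicate 1. For the genes called higher it was 0.36 and 0.42, and for those called lower 0.38 and 0.43. These spreads are smaller than the 1 log2 of a 2-fold change.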

How the data were processed

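Synovial RNA was converted to strand-specific libraries and read once from 1 end over 75 nt, per the labels' protocols. The submitters' processing notes name HISAT and DESeq with no role or version, and neither build nor annotation is stated in the sources used here. The deposited table holds log2 values. Judged from the values, the authors took the log2 of whole reads divided by a factor per library, and a count of 0 appears as 0.9 of a read. Undoing this gave whole reads for 100% of values above 0, to a relative tolerance of 0.001. They were multiplied up to the median factor, 5.75 megareads. The 1 row lacking an identifier, at most 0.0137% of reads in any library, was left out.

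Tested genes had 10 or more normalized reads in 4 or more of the 58 libraries. The test was limma 3.58.1 (R 4.3.3) on the log2 of normalized reads plus a pseudocount of 1, over all libraries and 10 group means, with trended and robust moderation. Groups came from titles. No label states separate animals: the p-values cover variation from library to library, which may be technical. No pair within a group was alike to within sampling noise (lowest chi-square divided by its degrees of freedom, 4.98). Named genes had the largest change among called genes whose groups did not overlap, whose call held without saline replicate 1 and whose mean log2 was 5 or more in the higher group. Since the reference (RefSeq, GRCr8) matched 0 of 16879 identifiers, the rule gave 2 identifiers per direction, and the gene lists, cell markers and promoters drawn up for this comparison were not analysed here. Members, lists and rules were chosen with earlier results of these data known. In simulated data of 12436 genes, 50 genes were given each fold. The test found 12% at 1.5-fold, 44% at 2-fold, 94% at 4-fold and 100% at 8-fold, and made 4 false calls. Only the genes given a fold were changed and no shift in scaling was simulated, whereas 27.1% of genes were called in the data. These rates therefore need not hold for the comparison made here. Library measures were tested by exact permutation (two-sided, 495 assignments, scipy 1.17.1).

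Alternatives were pseudocounts of 0.5 and 8, a filter of 50 or none, TMM factors, quantile normalization, a fit of the 12 libraries alone, a replicate block, array weights, limma voom on recovered reads, thinning to 1500000 reads, each library left out, and saline replicates 1 to 4 or 5 to 8 alone. Replicates 2 to 4 alone, the subsets with TMM factors, the library measures with their alternatives, sizes and read shares without saline replicate 1, and level bins by the mean of both groups were added after the data were seen.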

Additional observations from a re-analysis of the deposited data

Results flagged for a closer look

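Of 32 checks for a library far from the others of its group, 5 stood out. Chance gives about 1 in 20 for a single check on normal values. Some checks share genes and others use reads without a log, so 5 of 32 does not measure an excess. Naive replicate 4 held 30.2 normalized reads of ENSRNOG00000002548, where the other naive libraries held 6.72 to 8.89, and 31.2 of ENSRNOG00000008478, where they held 0 to 2.88. Saline day 5 replicate 1 held 6.42 megareads in genes, where the others held 1.02 to 2.40 megareads, and lay at least 2-fold above all other saline libraries in 155 genes, where the others did so in 5 to 59. Saline day 5 replicate 3 had 1.53% of its reads in the genes called at least 4-fold lower, where the others had 0.685% to 1.08%.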

How the results depend on the processing

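The number of genes called stayed within 1.5 times 3546 under every alternative run, from 2768 (saline replicates 5 to 8 only) to 4492 (quantile normalization), and that of at least 2-fold changes within 1.5 times 2093, from 1399 (filter of 50 normalized reads) to 2842 (no filter, with 16879 genes tested). Leaving out each library gave 2806 to 3838 called genes. The share of calls that were higher, 60.7%, was 50.1% with no filter, 71.6% without naive replicate 3 and 46.3% with limma voom on recovered reads and TMM factors together (52.5% with TMM factors alone). The 4 named genes kept direction and call in all but 1 case: ENSRNOG00000008478 in limma voom (7.79 log2, adjusted p = 0.0915, against 1.18e-07 to 0.000171 under the other alternatives). These genes were chosen for large changes and for a call without saline replicate 1. That alternative could not fail, and the 4 genes do not stand for all called genes. Library measures lost their call in subsets of 4 against 4, where the smallest possible p is 0.0286: genes detected at matched depth differed by -924 in replicates 1 to 4 (exact permutation, adjusted p = 0.114) and -686 in replicates 5 to 8 (0.0762), and the share of the 10 leading genes by 5.93 and 3.58 percentage points (0.114 and 0.0571). The difference in genes holding 50% of reads was -153 to -102 with each library left out, and passed without saline replicate 2 (exact permutation, adjusted p = 0.0121). A replicate block gave 3476 called genes. Same-numbered naive and saline libraries did not deviate together (r between -0.0042 and 0.0085 for the 4 pairs). Differently numbered pairs gave r between -0.103 and 0.067. No pairing by number was thus seen, but so few pairs cannot exclude one. Genes with few reads, such as ENSRNOG00000008422 with 26 reads over the saline libraries, have folds set by the pseudocount.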
